A study of Mus musculus with 4 samples.

Results

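RAW264 cells are a mouse macrophage-like line derived from BALB/c mice. Cells given small interfering RNA (siRNA) against Tfe3 and Tfeb and then loaded with iron were set against cells given siRNA against green fluorescent protein (GFP) and no iron. The control siRNA has no target in these cells, so both groups had been through a transfection. Each of the 4 groups held 1 array: siGFP untreated, siGFP with iron, siTfe3/Tfeb untreated and siTfe3/Tfeb with iron. Iron was ferric chloride at 500 µM for 24 hours, begun 48 hours after transfection. Transcripts were measured on Agilent 1-colour arrays as the processed signal of each probe, scaled here as log2 signal minus the 75th percentile of the array. Of 24788 named genes, 14004 were well above background by the scanner's flag on both the siTfe3/Tfeb iron array and the siGFP array, each read by its brightest probe, and these were compared. Of those, 13915 also passed that flag on the siTfe3/Tfeb array and 13825 on every array.

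A single array a group leaves no replicate check, so groups are compared without a test and without p-values. The only error that could be measured was that of repeated spots of 1 probe, given below as a spot SD of the log2 difference. It was 0.31 below a level of -2, 0.12 from -2 to 0, 0.091 from 0 to 2 and 0.12 from 2 to 4, and 0.062 above 4. Behind these values stood 49, 10, 16, 10 and 1080 probes counted once per array, so the middle values are rough, and the error leaves out variation between cultures. The 75th percentile of the signal was 593 to 636 on the 4 arrays, and no spot was saturated. Of 24 macrophage markers 23 were well above background on all 4 arrays, with Adgre4 the exception. Markers of 3 other cell types were sparse: 1 of 9 fibroblast, 2 of 8 epithelial and 2 of 8 endothelial markers passed on all 4 arrays. Of 10 lymphocyte markers 5 passed, which is near the share of all named genes (13825 of 24788). Among them Cd4 gave a signal of 1283 in siGFP.

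Tfe3 and Tfeb belong to the MiT/TFE family of transcription factors, which in macrophages and other cells enter the nucleus under lysosomal stress or starvation and activate genes of lysosomes and autophagy. Macrophages recycle iron from red cells: they break down heme, store iron in ferritin and export it through ferroportin, and excess iron feeds oxidative stress that the factor Nrf2 answers. The differences used throughout are these. The knockdown difference is siTfe3/Tfeb minus siGFP without iron, the iron step is siTfe3/Tfeb iron minus siTfe3/Tfeb, and the double difference is siTfe3/Tfeb iron minus siGFP, which is the sum of the other two, all in log2.

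The targeted transcripts came first. Tfe3 gave a processed signal of 12420 without and 11310 with iron in siGFP, and 7736 without and 7315 with iron in siTfe3/Tfeb, from a probe at chrX:7352259-7352318 (mm9, per the array design). Its level was lower on both knockdown arrays, at 60.6% of siGFP without iron and 61.5% with it (log2 double difference -0.70, spot SD 0.12). Tfeb did not show such a drop on its brightest probe at chr17:47896359-47896418 (mm9), with signals of 341, 318.6, 318.8 and 337.6 in the same order. That put Tfeb at 91.0% of siGFP in siTfe3/Tfeb and 103% once iron was added. Its 3 dimmer probes stood at 62.6% to 86.2% on the siTfe3/Tfeb iron array, but at 88.3% to 105% without iron. The probe at 62.6% had signals of 105.7 without and 69.8 with iron in siGFP, and 95.9 and 63.3 in siTfe3/Tfeb. Its drop was thus also seen with iron in siGFP. The mean over all Tfeb probes gave a double difference of -0.27 in log2 where the brightest gave 0.05. The directions below are therefore those of arrays labelled siTfe3/Tfeb, with a lower level seen for Tfe3 and not for Tfeb on its brightest probe. The relatives Mitf and Tfec are close in DNA-binding domain. Mitf had a double difference of 0.04 on its brightest probe and 0.20, 0.33 and 0.60 on its 3 other probes. Tfec stood at -0.65 in siTfe3/Tfeb and 0.50 with iron added, from dim signals of 27.2 to 57.9 (spot SD 0.31). A second Tfec probe was not well above background on any array.

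The double difference reached 2-fold upward in 252 genes (1.8% of the 14004) and downward in 210 genes (1.5%). The largest were iron and stress genes above and inflammatory genes below. Slc40a1, which encodes the iron exporter ferroportin, gave signals of 80.2 without and 1546 with iron in siGFP, and 95.4 without and 2060 with iron in siTfe3/Tfeb. It was 26.8-fold higher than in siGFP (log2 4.75, spot SD 0.12), high on both iron arrays and low on both others. Hmox1, the heme-degrading enzyme, followed at 10.4-fold (log2 3.38), and Tent5c, a poly(A) polymerase, at 3.32 in log2. Mmp9, a gelatinase secreted by macrophages, had the largest drop, with signals of 517.8 without and 183 with iron in siGFP, and 39.9 without and 44.3 with iron in siTfe3/Tfeb. It was 11.2-fold lower than in siGFP (log2 -3.48, spot SD 0.31), and both knockdown arrays lay below both siGFP arrays. In bulk RNA a lower level per cell and fewer expressing cells cannot be told apart. Next were Serpinb10 at -3.06, the formyl peptide receptor gene Fpr2 at -3.01 and the class II peptide loading gene H2-DMb1 at -2.49 (log2). Just inside the 2-fold limit lay Slc41a2 at 1.002 and Cd200r2 at -1.001, and just outside it Nrp1 at 0.9974 and Col1a2 at -0.9975. With normexp background correction 155 genes were 2-fold higher and 95 lower, and with no filter on background 662 and 1508. Of the genes counted, 54.5% were higher, against 68.6% (345 higher and 158 lower) when arrays were centred on their medians, which moved the median double difference of all genes from -0.03 to 0.07.

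Before iron, 198 genes (1.42% of 13915) were 2-fold higher and 251 (1.8%) 2-fold lower in siTfe3/Tfeb than in siGFP. These 449 genes were sorted by where they lay once iron was added, with a width of 0.5 on the log2 scale counted as level. Of these, 217 (48.3%) were held, with a double difference over 0.5 on the same side and an iron step within 0.5. A further 97 (21.6%) came part way toward the control, 100 (22.3%) were back at the control level, and 12 (2.67%) went past it. Only 23 (5.12%) were added to, with iron moving the gene further the same way. Back at control were 45 of the 198 higher and 55 of the 251 lower genes, past control 1 and 11, part way 43 and 54, held 93 and 124, and added 16 and 7. Held does not mean unmoved: 37 of the 93 and 47 of the 124 had an iron step over 2 spot SD. The shares depend on the limits: back at control ran from 10.2% with a width of 0.3 to 46.3% when genes were taken from 1.5-fold, and part way from 5.05% to 47.4% between the same settings in the reverse order. The knockdown difference and the iron step share the siTfe3/Tfeb array, so a deviation of that array alone would give them opposite signs. The siGFP iron array enters no class. For genes well above background there too, medians of siTfe3/Tfeb iron against siGFP iron were 0.97 for higher and -0.96 for lower held genes. They were 0.88 and -1.17 for genes part way, and 0.90 and -1.30 for genes added to. The other classes are given below.

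**Figure D1:**
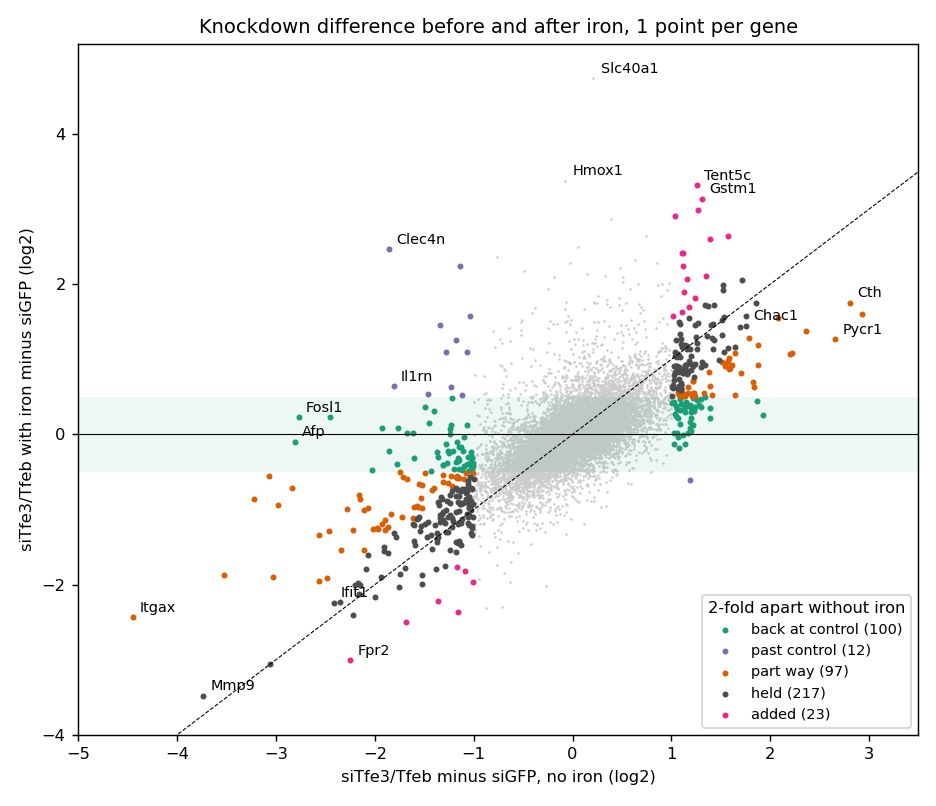
Each point is 1 gene of 13915; the x axis is siTfe3/Tfeb minus siGFP without iron and the y axis siTfe3/Tfeb with iron minus siGFP, both log2. Colours mark the 449 genes 2-fold apart without iron by class, the dashed line is no iron step and the green band is within 0.5 of the control; 217 dark grey points lie near the dashed line and 100 green points in the band.

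The type I interferon response was held. These genes are switched on by interferon signalling and encode antiviral proteins. All 46 measured members were below 0 in siTfe3/Tfeb, and 45 of 46 remained below siGFP once iron was added. The median was -0.64 without iron and -0.80 with it, against -0.03 over all genes in both cases, and stayed between -0.82 and -0.69 in 7 other processings. With iron, 16 of 46 were 2-fold lower, against 1.5% of all genes. Over all genes 46.8% were above 0 without iron and 46.0% with it. Ifit1, an inhibitor of viral translation, gave signals of 941 without and 565 with iron in siGFP, and 181 without and 190.5 with iron in siTfe3/Tfeb. It was low on both knockdown arrays and intermediate on the siGFP iron array, with a double difference of -2.24 (spot SD 0.12). Mx1, a GTPase that blocks virus replication, had signals of 1600, 747, 571 and 419 in the same order, a double difference of -1.87. Ifit3 at -1.97 and its near copy Ifit3b at -2.23 can share probe signal and are not independent of each other. Of the 16 members 2-fold lower without iron, 15 were held and 1, the chemokine gene Cxcl10, came part way from -1.98 to -1.24. Iron alone also lowered this list, with a median of -0.43 in siGFP, so the median of siTfe3/Tfeb iron against siGFP iron was -0.38.

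Interferon-stimulated promoters carry an element that reads GAAANNGAA in its simplest form. In RefSeq promoters of GRCm38.p6 (250 bases before to 50 after the start, both strands searched), 23 of 36 members with a table entry held it (63.9%), against 9.76% of 27025 genes. Windows from 4 members with lower levels in both knockdown arrays are shown 5′ to 3′ along the gene, with the matches in capitals. Ifit1 lies at chr19:34640765-34640828 on the plus strand, with 3 matches, of which 2 overlap. Rsad2 lies at chr12:26456548-26456586, Cxcl10 at chr5:92349079-92349117 and Irgm1 at chr11:48871421-48871465, all on the minus strand, with 2 overlapping matches in Irgm1.
Ifit1: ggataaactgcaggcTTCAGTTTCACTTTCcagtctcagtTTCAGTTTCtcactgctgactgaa
Rsad2: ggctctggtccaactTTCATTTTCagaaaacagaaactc
Cxcl10: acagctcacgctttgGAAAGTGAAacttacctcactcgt
Irgm1: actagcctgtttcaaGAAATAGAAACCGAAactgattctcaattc
The matches describe the letters only. Rsad2, an antiviral radical enzyme, had a double difference of -1.31, and Irgm1, an immunity-related GTPase, of -1.31, each held from -1.80 and -1.37 without iron.

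Some of the held genes outside that list with the largest knockdown differences follow. Il1b, which encodes interleukin 1 beta, gave signals of 662 without and 497 with iron in siGFP, and 146 without and 120 with iron in siTfe3/Tfeb. The gene was low on both knockdown arrays, with a double difference of -2.40 (spot SD 0.12). The lectin receptor gene Clec4b1 stood at -2.12 and Serpinb10 at -3.06, each within 0.05 of its knockdown difference. Above the control, the lysosomal hyaluronidase gene Hyal1 gave signals of 749, 1187, 2519 and 2988 in the order of siGFP, siGFP iron, siTfe3/Tfeb and siTfe3/Tfeb iron. It was 4.17-fold higher with both treatments, and both knockdown arrays exceeded both siGFP arrays. The clock repressor gene Nr1d1 was at 1.53 without and 1.56 with iron, and the vasodilator peptide gene Adm at 1.52 and 1.99.

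Genes of glycolysis and the hypoxia response were also held as a list. Many are targets of Hif1a, which is active at low oxygen. The median of 34 members was 0.39 in siTfe3/Tfeb and 0.40 once iron was added, with 31 of 34 above 0 and 6 at least 2-fold higher. Over all genes 46.0% were above 0 with iron and 1.8% were 2-fold higher. Vegfa, the vascular growth factor, had signals of 1133, 1047, 2454 and 2241 in the same order, and the oxidoreductase gene Ero1a 14120, 13780, 27950 and 30430. Both were about level between the siGFP arrays and high on both knockdown arrays, though only 2 of the 3 other Vegfa probes had the same sign. In siGFP iron alone gave this list a median of -0.06. DNA replication genes kept their lower level too, with 27 of 29 below 0 and medians of -0.32 and -0.39, and Mcm4, a subunit of the replicative helicase, at -0.78 and -0.74. None of them was 2-fold apart.

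The integrated stress response came part way back. In this pathway, stress or amino acid shortage raises translation of the factor Atf4, which activates genes of amino acid synthesis, transport and tRNA charging. In siTfe3/Tfeb the median of 36 measured targets was 0.79 and 12 were 2-fold higher, against 1.42% of all genes. With iron the median was 0.46 (0.43 to 0.56 in 7 other processings), 33 of 36 were above 0 and 9 were 2-fold higher. Over all genes 46.0% were above 0 with iron and 1.8% were 2-fold higher. Of the 12, 8 came part way, 2 were held and 2 were back at control. Over the 35 targets well above background on all 4 arrays, iron in siGFP gave a median of 0.09. Against siGFP iron, siTfe3/Tfeb iron was at 0.39. Cth, which makes cysteine from cystathionine, gave signals of 81.7 without and 132 with iron in siGFP, and 589 without and 264 with iron in siTfe3/Tfeb. Its highest value was in the untreated knockdown, with a knockdown difference of 2.81, an iron step of -1.06 and a double difference of 1.76 (spot SD 0.12). Aldh1l2, a mitochondrial folate enzyme, ran from 2.93 to 1.60, with signals of 173, 171, 1352 and 502. Pck2, the mitochondrial carboxykinase, ran from 2.20 to 1.07 and Pycr1, the last enzyme of proline synthesis, from 2.66 to 1.27. Pycr1 was not well above background in siGFP with iron.

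Not every target followed. Chac1, which degrades glutathione, was held at 1.76 and 1.45, and Ddit4, an mTORC1 inhibitor, at 1.03 and 0.91. Asns, the asparagine synthetase gene, was back at control, at 1.19 and then 0.40. The stress factor gene Atf3 had both steps, with signals of 1037 without and 2532 with iron in siGFP, and 2068 without and 3775 with iron in siTfe3/Tfeb. Slc7a11, the cystine importer shared with the Nrf2 list, had no knockdown difference (-0.05) and a double difference of 1.58. The aminoacyl-tRNA synthetase genes, which charge tRNAs, had a median of 0.41 that dropped to 0.15, with 19 of 20 within 0.5 of siGFP once iron was added, where 83.5% of all genes lay.

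Atf4 binds sites that read TGATGNAA. The letters stood in 12 of 35 promoters of stress response targets (34.3%) and 5 of 13 of synthetases (38.5%), against 4.51% of all genes in the table. Windows from 5 members are shown because they fall in different classes: Chac1 held, Pycr1 and Pck2 part way, Asns back at control and Slc7a11 on the iron step. Chac1 lies at chr2:119351034-119351071 and Pck2 at chr14:55540148-55540185 on the plus strand. Pycr1 lies at chr11:120643829-120643866, Asns at chr6:7693210-7693247 and Slc7a11 at chr3:50443638-50443694 on the minus strand (all GRCm38.p6).
Chac1: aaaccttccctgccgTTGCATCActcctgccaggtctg
Pycr1: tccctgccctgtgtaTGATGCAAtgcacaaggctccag
Pck2: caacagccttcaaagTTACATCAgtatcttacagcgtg
Asns: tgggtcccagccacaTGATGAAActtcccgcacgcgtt
Slc7a11: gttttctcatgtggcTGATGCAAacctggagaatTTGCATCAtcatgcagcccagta
Slc7a11 held 2 matches and the others 1 each, and since the windows were picked for holding a match, they say nothing of how matches divide over the classes.

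Among genes lower in siTfe3/Tfeb, 54 came part way. Itgax, which encodes the integrin CD11c, had the largest knockdown difference of all, with signals of 2108 without and 4514 with iron in siGFP, and 99.2 without and 373 with iron in siTfe3/Tfeb. It was 21.8-fold lower without iron and 5.40-fold lower with it, so iron added 2.02 (log2) and left a double difference of -2.43 (spot SD 0.12). Ccl2, the monocyte chemokine, had signals of 4289, 19050, 616 and 2502 in the same order. Here the siGFP iron array was the highest, and siTfe3/Tfeb iron lay 0.71 below siGFP but 2.85 below siGFP iron. The elastase gene Mmp12 ran from -3.22 to -0.86 and the membrane glycoprotein gene Pdpn from -3.07 to -0.56. The immediate early genes Egr1, from -2.98 to -0.94, Egr2, from -2.565 to -1.34, and Fos, from -2.11 to -1.54, did likewise. Their list was mixed: of 10 members 2-fold apart without iron, 5 came part way, 3 were back at control, 1 went past and 1 was held. The median of its 27 measured members was -0.43 without iron and 0.04 with it. The inflammatory cytokine gene Tnf went from -2.15 to -0.86. Chaperones of the endoplasmic reticulum were part way as well, at a median of -0.48 and then -0.27 over 25 members. Hspa5, the main chaperone of that compartment, was at -1.08 and -0.51, with signals of 65770, 70920, 32020 and 44250. In siGFP iron alone moved it by 0.09.

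**Figure D2:**
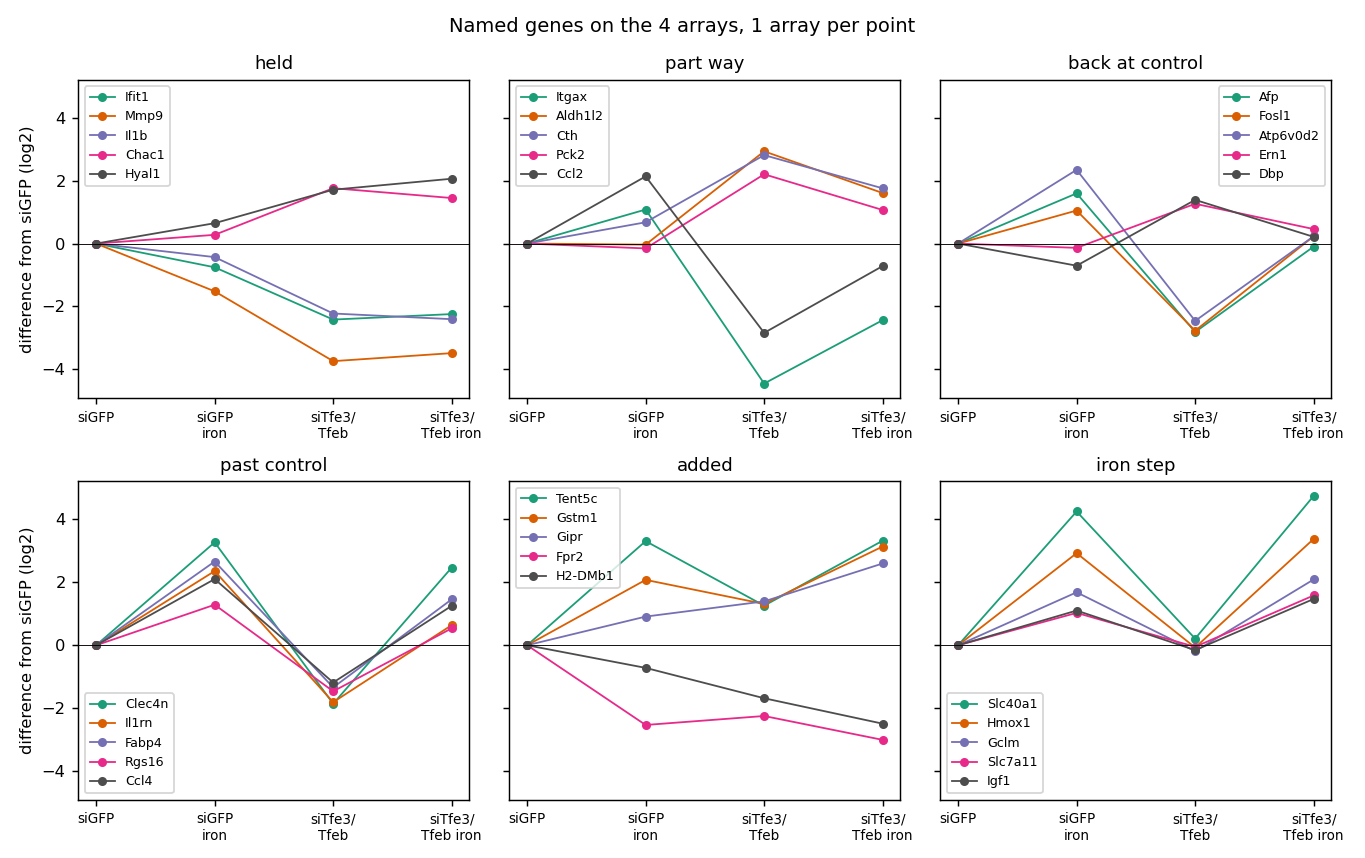
Difference from siGFP (log2) of named genes on the 4 arrays, 1 panel per class, 1 array per point; lines only join the points of a gene. Ifit1 and Mmp9 stay low on both knockdown arrays, Afp and Atp6v0d2 are low in siTfe3/Tfeb and near 0 with iron added, and stand at 1.60 and 2.34 on the siGFP iron array, and Slc40a1 is high on both iron arrays.

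Of genes lower in siTfe3/Tfeb, 55 were back at the control level with iron. Atp6v0d2, a proton pump subunit abundant in osteoclasts and some macrophages, gave signals of 495.5 without and 2544 with iron in siGFP, and 92.7 without and 557 with iron in siTfe3/Tfeb. Its double difference was 0.23 (spot SD 0.12), yet the siGFP iron array was far above both, so siTfe3/Tfeb iron lay 2.11 below it. Fosl1, an AP-1 subunit, ran from -2.77 to 0.23, with signals of 224, 469, 33.7 and 252. Afp, a fetal serum protein, ran from -2.81 to -0.10, with signals of 865, 2645, 127 and 774. Dusp5, a nuclear ERK phosphatase, ran from -1.77 to 0.08 and Plaur, the urokinase receptor, from -1.68 to 0.02. The 15 measured osteoclast genes had a median of 0.20 in siTfe3/Tfeb iron, which turned to -0.04 with the mean over all probes. Without iron 5 of them were 2-fold lower. Of the 5, 4 were back at control (Atp6v0d2, the acid phosphatase gene Acp5, the protease gene Ctsk and the fusion gene Ocstamp), and Mmp9 was held.

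Of genes higher in siTfe3/Tfeb, 45 were back at control. Dbp, a clock output factor, gave signals of 1771 without and 1100 with iron in siGFP, and 4763 without and 1964 with iron in siTfe3/Tfeb. The untreated knockdown stood alone at the top, and the double difference was 0.21 (spot SD 0.12). Ern1, the sensor kinase of the unfolded protein response, had signals of 453, 417, 1118 and 596, and a double difference of 0.46. Rdm1, a homologous recombination factor, ran from 1.93 to 0.26. Genes of mitosis, none of them 2-fold apart, moved back as a list. In siTfe3/Tfeb 27 of 28 were above 0 with a median of 0.37, and with iron all 28 lay within 0.5 of siGFP at a median of -0.03, which turned to 0.07 with median centring. Over all genes 46.8% were above 0 in siTfe3/Tfeb, and 83.5% lay within 0.5 of siGFP with iron. In siGFP iron gave the mitosis list a median of -0.17, and siTfe3/Tfeb iron against siGFP iron was at 0.14. Nusap1, a spindle protein, had signals of 2252, 1794, 4147 and 2135, with siTfe3/Tfeb highest.

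The fourth array separates the control level from the iron-loaded control. Among the 55 lower genes back at control, siGFP with iron was above siGFP by a median of 0.71. Their median in siTfe3/Tfeb iron was -0.28 against siGFP and -0.93 against siGFP iron. Of these, 42 of 55 lay more than 0.5 below siGFP iron and 13 lay within 0.5, with none above by more than 0.5. By 2-fold or more, 23 of the 55 were below siGFP iron, against 1.25% of all 13825 genes. Among the higher genes back at control, 41 were well above background in siGFP with iron, with medians of -0.33 for iron in siGFP and 0.59 for siTfe3/Tfeb iron against siGFP iron. More than 0.5 above siGFP iron were 25 of 41, and 16 were within 0.5. By 2-fold or more, 4 of the 41 were above siGFP iron, against 0.817% of all genes. The median over all genes was -0.02, and the share of all genes beyond 0.5 is not given here. The 16 include Adgre5, Asns and Psph, and the 13 include the cyclin gene Ccnd1, the itaconate enzyme gene Acod1 and Phlda3. These were chosen after their values were seen.

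For all genes chosen on the knockdown difference without iron, the difference between the iron arrays is measured on 2 arrays the choice did not use. Of 189 higher genes 187 were above siGFP iron, and 74 (39.2%) were 2-fold so, against 0.817% of all 13825 genes. Of 251 lower genes 250 were below siGFP iron, and 122 (48.6%) were 2-fold so, against 1.25% of all genes. Over all 13825 genes, 6532 were above siGFP iron and 7293 below it. The medians were 0.84 and -0.98, against 1.18 and -1.28 without iron. The knockdown difference thus had the same direction on the second pair of arrays for nearly all of these genes, at a smaller median size. Choosing genes for a large difference on 1 pair of arrays by itself favours a smaller median on another. Whether iron lessened the difference was not tested.

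**Figure D3:**
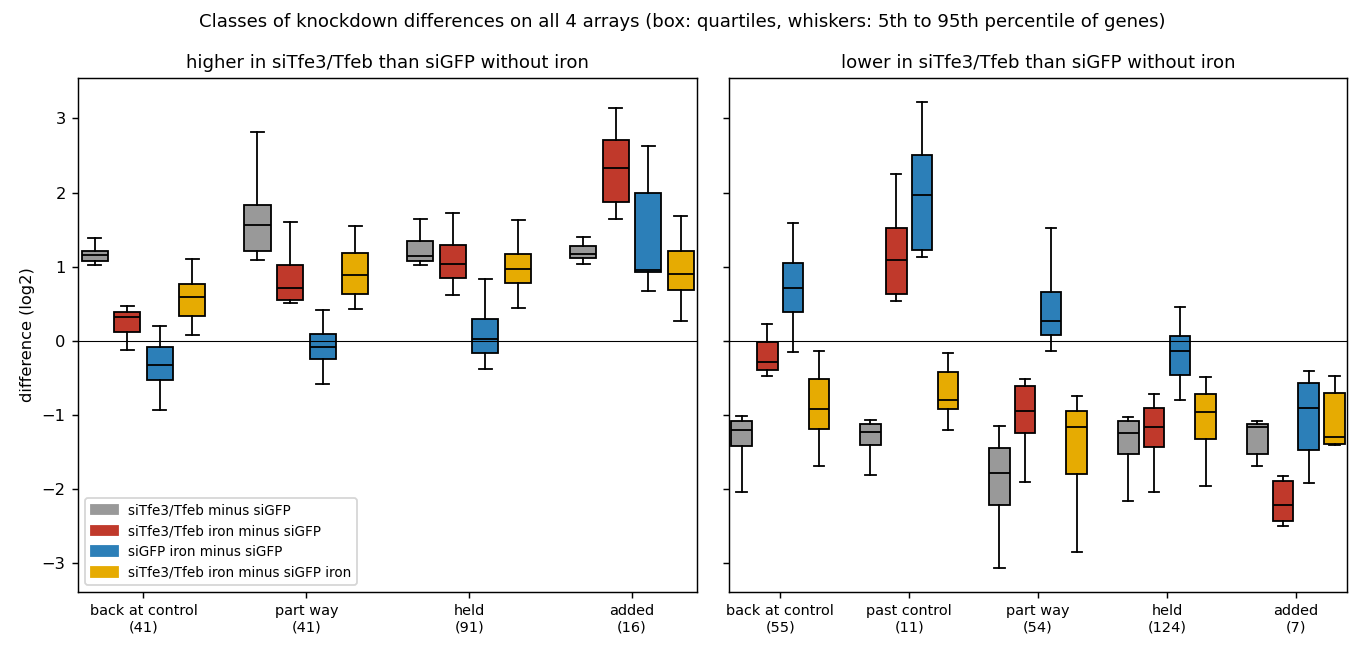
Boxes show quartiles and whiskers the 5th to 95th percentile over genes of each class (number in brackets, genes well above background on all 4 arrays), for the 4 log2 differences named in the key; classes with under 5 genes are not drawn. In genes back at control the red box lies near 0 while the yellow box, siTfe3/Tfeb iron minus siGFP iron, has a median of 0.59 for higher and -0.93 for lower genes.

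Past the control level went 12 genes, 11 of them lower in siTfe3/Tfeb and higher with iron. Clec4n, the fungal pattern receptor Dectin-2, gave signals of 1145 without and 11180 with iron in siGFP, and 324.5 without and 6064 with iron in siTfe3/Tfeb. It went from -1.86 to 2.47 (log2, spot SD 0.091), and the iron arrays were the 2 highest. Il1rn, the interleukin 1 receptor antagonist, had signals of 4722, 24490, 1385 and 7041, and Fabp4, a fatty acid carrier, 256, 1638, 104 and 673. The chemokine gene Ccl4 went from -1.18 to 1.25, the protein C receptor gene Procr from -1.13 to 2.25 and Rgs16, a G protein regulator, from -1.46 to 0.54. In all 11 genes siGFP with iron was above siGFP, by 0.70 to 3.27 with a median of 1.965, and siTfe3/Tfeb iron was a median of 0.80 below siGFP iron. Lifr was the gene that went from higher to lower, at 1.19 and -0.61, and was not well above background in siGFP with iron.

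Cholesterol synthesis crossed the control as a list without 2-fold members on the far side. Sterol shortage activates these genes through Srebf2. The median of 23 genes was -0.28 in siTfe3/Tfeb and 0.29 once iron was added, and 22 of 23 were above 0 with iron, against 46.0% of all genes. In siGFP iron gave this list a median of 0.43, and siTfe3/Tfeb iron against siGFP iron was at -0.08. Hsd17b7 was the only member 2-fold lower without iron, at -1.07, and stood at 0.13 with it, or at -0.22 by the mean over all its probes.

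Few differences added up. Of the 23 genes added to, 16 were higher and 7 lower, and the other genes among the 83 with both steps had a knockdown difference between 0.5 and 1 in size. The glutathione transferase gene Gstm1 gave signals of 427 without and 1826 with iron in siGFP, and 1090 without and 3599 with iron in siTfe3/Tfeb. The signal was higher with either treatment alone and highest with both, 8.80-fold above siGFP (log2 3.14, spot SD 0.091). The knockdown difference of 1.31 and the iron response in siGFP of 2.08 sum to 3.39. Gstm3 at 2.99 and Gstm6 at 1.70 are close relatives whose probes may share signal with Gstm1. Slc6a8, the creatine transporter, had signals of 174, 1086, 367 and 1256, a double difference of 2.91 that fell short of its sum of 3.66. Tent5c at 3.32 also fell short of its sum of 4.57, its 2 iron arrays being level at 1213 and 1158. The incretin receptor gene Gipr came to 2.60 against a sum of 2.305. Its spot SD of 0.31 is that of a difference of 2 arrays, while the gap to the sum draws on 4. Mt2, a metal-binding metallothionein, had signals of 17640, 50050, 30280 and 105000, and its 2.64 exceeded the sum of 2.23.

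Downward, Fpr2 gave signals of 822 without and 144 with iron in siGFP, and 178 without and 97.9 with iron in siTfe3/Tfeb. Each treatment alone gave most of the drop, and the double difference of -3.01 (spot SD 0.12) was well short of the sum of -4.78. H2-DMb1, with signals of 435, 268, 139 and 74.1, came to -2.49 against a sum of -2.40. Id3, a repressor of helix-loop-helix factors, came to -1.97 from signals of 1170, 574, 600 and 286, against a sum of -2.05. Among genes with both steps 45 of 53 higher and 24 of 30 lower lay within 0.5 of the sum of the knockdown difference and the iron response in siGFP (84.9% of the higher ones). Over all 13825 genes the share was 92.5%, so these counts are no higher than the background.

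The double difference was mostly iron for 123 of the 456 genes past 2-fold that were measured on 3 arrays (27.0%), mostly knockdown for 198 (43.4%), both for 83 (18.2%) and opposed for 52 (11.4%). The iron step held 89 of the 250 higher genes and 34 of the 206 lower ones. Nrf2 targets, which defend against oxidants, made up 7 of the 123 genes on the iron step. In the double difference all 30 measured members were above 0 and 10 were 2-fold higher, against 46.0% and 1.8% of all genes. Their median was 0.54, while in siTfe3/Tfeb without iron it was -0.04, and 0.02 with normexp and quantile normalization. Gclm, the modifier subunit of glutathione synthesis, gave signals of 1709 without and 5553 with iron in siGFP, and 1541 without and 6966 with iron in siTfe3/Tfeb. Hmox1 had signals of 11670, 89780, 11400 and 116200 in the same order. For both genes the iron arrays stood high and the 2 untreated arrays were close together. The motif TGACNNNGC was in 11 of 30 promoters of this list (36.7%), against 14.0% of all genes and 16.7% to 28.6% in 8 other lists.

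Against 1.8% and 1.5% of all genes, 6 of 30 measured iron-handling genes were 2-fold higher and 1, Tfrc, lower. Besides Slc40a1, Hmox1 and the biliverdin reductase gene Blvrb at 2.03, these were the heme transporter Slc48a1 at 1.66, the phagosomal metal transporter Slc11a1 at 1.41 and the ferritin light chain Ftl1 at 1.10. The ferritin heavy chain Fth1 was at 0.50. Tfrc, the transferrin receptor that imports iron, had signals of 500, 274, 210 and 142, lowest with both treatments. Its double difference of -1.75 was mostly a knockdown difference of -1.29 and was short of the sum of -2.18. In the lower direction, complement C3 was at -1.28 and the cholesterol exporter Abca1 at -1.18, with knockdown differences of -0.37 and -0.39.

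**Figure D4:**
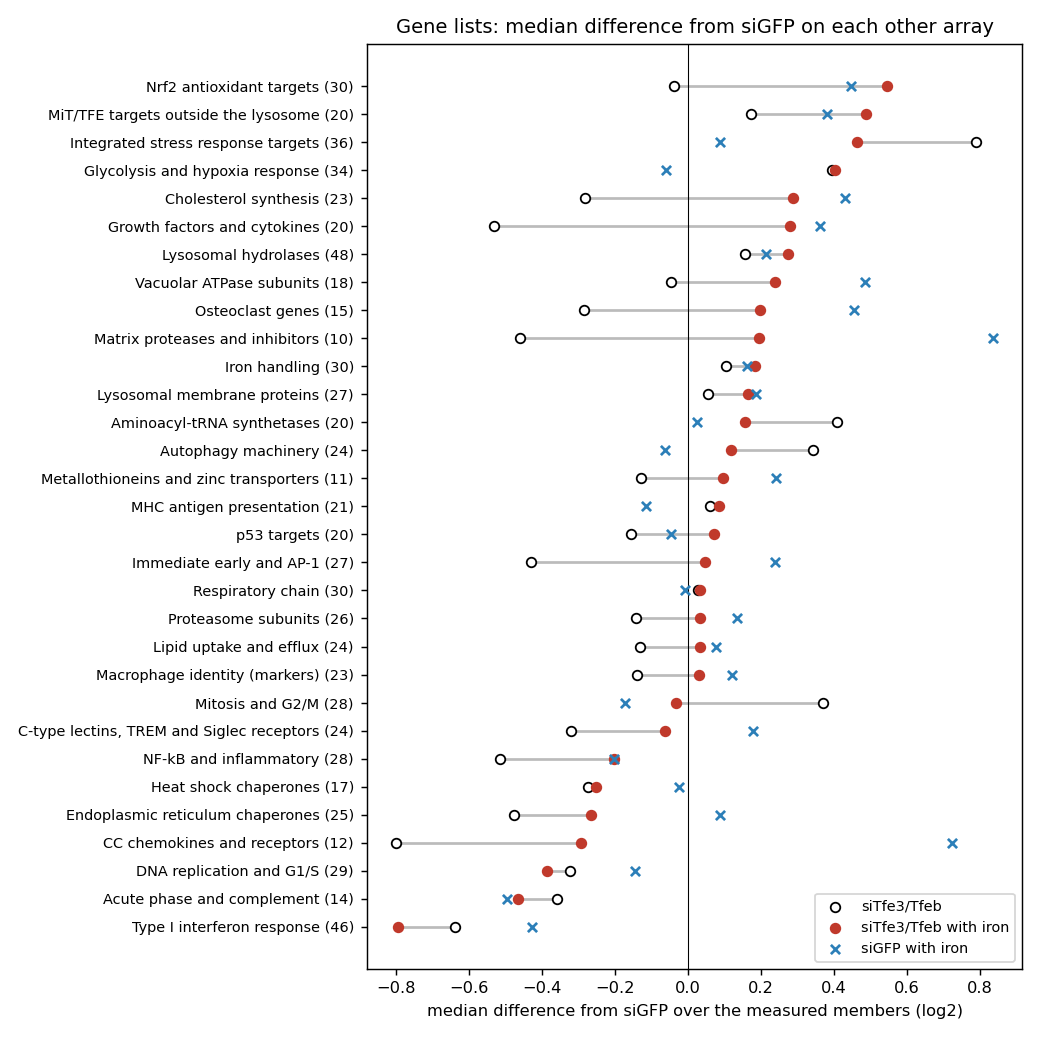
Median difference from siGFP (log2) over the measured members of each gene list with 10 or more members measured (number in brackets), for siTfe3/Tfeb (open circle), siTfe3/Tfeb with iron (red) and siGFP with iron (cross). The red point of the interferon list lies farthest left at -0.80 and that of Nrf2 targets farthest right at 0.54; for mitosis it is at -0.03 against an open circle at 0.37.

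Lysosomal genes, the textbook targets of Tfe3 and Tfeb, were not lower as a group in the iron-loaded knockdown. Of 48 measured lysosomal hydrolases 36 were above siGFP, against 46.0% of all genes, and none was 2-fold apart. Their median was 0.27, against 0.15 in siTfe3/Tfeb without iron and 0.21 in siGFP with iron. The acid proteases Ctsd, with signals of 40040, 79590, 37170 and 69020, and Ctsl, at 0.97, were highest on the iron arrays. All 18 subunits of the vacuolar proton pump were above siGFP, at a median of 0.24, while siGFP with iron was at 0.48 and siTfe3/Tfeb without iron at -0.05, a value that turned to 0.05 with the mean over all probes. Atp6v1a, the catalytic subunit, had signals of 8286, 15020, 12060 and 15630, a double difference of 0.98 (spot SD 0.062). Known targets beyond the lysosome stood at a median of 0.49, and 5 of 20 were 2-fold higher, against 1.8% of all genes. These 5 were Gpnmb at 1.29, Fnip2 at 1.30, Sqstm1 at 1.31, Nr1d1 at 1.56 and Wipi1 at 1.04. In siGFP iron gave this list a median of 0.38, and siTfe3/Tfeb iron against siGFP iron was at 0.01. Iron in siGFP moved Gpnmb by 1.42, Fnip2 by 1.09, Sqstm1 by 1.13, Nr1d1 by 0.17 and Wipi1 by -0.12. Mreg, a melanosome transport factor, was the 1 member 2-fold lower, at -1.20. Autophagy machinery was at 0.34 in siTfe3/Tfeb and 0.12 with iron, and none of 24 genes was 2-fold apart.

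The MiT/TFE factors bind the palindrome TCACGTGA. It stood in 3 of 12 promoters of pump subunits (25.0%), 4 of 24 of lysosomal membrane proteins (16.7%) and 3 of 38 of hydrolases (7.89%), with 2 of 13 in the synthetases (15.4%), against 1.12% of all genes. Windows are shown for 2 genes that hold it and were higher in siTfe3/Tfeb iron than in siGFP. Both are on the minus strand of GRCm38.p6, Atp6v1a at chr16:44139369-44139406 and Ctsd at chr7:142387904-142387941.
Atp6v1a: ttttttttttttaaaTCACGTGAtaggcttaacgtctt
Ctsd: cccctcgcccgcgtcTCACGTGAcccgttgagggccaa
In siTfe3/Tfeb without iron Atp6v1a stood at 0.50 and Ctsd at -0.15.

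In the 52 genes with opposed steps, knockdown and iron pulled apart by more than 0.5. These were 52 of the 13915 genes measured on 3 arrays. Of 36 measured integrated stress response targets 6 were opposed. The count was 3 of 12 CC chemokines and receptors, 3 of 28 NF-kB and inflammatory genes and 3 of 27 immediate early genes. It was 2 of 20 growth factors, 2 of 24 lipid uptake genes and 2 of 24 lectin receptors. Some lists share genes, such as Ccl3. CC chemokines and receptors had a median of -0.80 in siTfe3/Tfeb and -0.29 with iron, against 0.72 in siGFP with iron. Ccl3, a chemoattractant, gave signals of 19790 without and 79820 with iron in siGFP, and 14290 without and 54480 with iron in siTfe3/Tfeb, a double difference of 1.52. Outside the opposed class, Ccl6, with signals of 2373, 4583, 648 and 807, stayed low on both knockdown arrays. Hbegf, an EGF receptor ligand, was at -0.80 and then 1.38, with siGFP with iron at 2.80. Cd36, a scavenger receptor for oxidised lipids, was at -2.02 and -1.26, and 1.26 in siGFP with iron. For Ccl6 and Cd36 the 2 iron arrays lay on opposite sides of siGFP. The growth factor gene Igf1 was on the iron step, with signals of 6770, 14720, 6249 and 17960.

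Macrophage markers did not shift as a list. Of 23 measured, 12 were above siGFP and 11 below, with a median of 0.03, and the respiratory chain had the same median over 30 genes, which turned to -0.01 with quantile normalization. A single marker passed 2-fold: Fcgr1, a high-affinity antibody receptor, was 2.47-fold lower, with signals of 8577, 6526, 5080 and 3321. The 5 measured lymphocyte markers had a median of -0.35 and were all below siGFP by their brightest probes, though not Ms4a1 and Cd4 by the mean over all probes, and their part in the results was not tested.

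Genes well above background on only 1 of the 2 arrays have only a bound, with the dim array set at the gene's own signal or at the dimmest signal that array's flag passed, whichever was higher. Of 293 such genes present in siTfe3/Tfeb iron, 48 were at least 2-fold higher, and of 676 present in siGFP, 71 were at least 2-fold lower. Ptpn14, a phosphatase, was at least 18.2-fold higher, with signals of 10.3 without and 365 with iron in siGFP, and 21 without and 378 with iron in siTfe3/Tfeb. The histidine-degrading enzyme gene Hal was at least 8.00-fold higher. Both were high on both iron arrays. Smc1b, a meiotic cohesin subunit, was at least 8.87-fold lower, with signals of 197, 88.7, 59.1 and 19.5, and the matrix protein gene Tnc at least 4.13-fold lower.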

How the data were processed

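Total RNA of 4 groups of RAW264 cells, 1 array each, was labelled with Cy3, per the labels, and Agilent Feature Extraction 12.0.3.1 read out the spots, per the submitters' processing notes. The deposited processed intensity is background-subtracted and detrended within an array, per the file headers, and not scaled between arrays. The series matrix the authors deposited is in log2 with each probe's median over arrays subtracted. Its array-to-array differences matched those of the scanner values (slope 1, r 1), and column medians were -0.0042, 0.022, -0.087 and 0.0013.

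Here the log2 of each intensity was lowered by the array's 75th percentile over 59305 spots that are not controls. Outlier spots were left out and spots of a probe averaged. Probes were named through a RefSeq table (GRCm38.p6): 33767 by accession, 9866 by symbol, 12972 not named. Of other probes of genes 2-fold apart in the double difference, 86.5% had the same sign. The 36 gene lists, classes and named genes were chosen with earlier results of these data known. Named genes follow size ranks within each class, list and direction. Genes known only by an identifier or with a second probe of the other sign were left out of the class and direction ranks, and not of the list ranks, where Vegfa and Cd4 have such probes. Acod1, Asns, Ccnd1, Cxcl10, Fth1, Ftl1, Irgm1, Ocstamp, Phlda3, Psph, Rsad2, Slc11a1 and Slc48a1 fall outside that rule or were singled out after their values were seen. The class rules were tested on simulated data. Other background corrections, scalings, probe rules, folds and widths were tried, and R 4.3.3 with limma 3.58.1 gave normexp values (offset 50). Promoters came from RefSeq, GRCm38.p6. Whether the arrays came from separate cultures is not given in the sources used here.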

Additional observations from a re-analysis of the deposited data

How the results depend on the processing

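No paired analysis was possible because each group holds 1 array, and no replicate could be left out. Among the named genes, none past 2-fold changed direction. List medians of the double difference that changed sign were those of osteoclast genes (-0.04 with the mean over all probes, -0.01 with no filter), mitosis (0.07 with median centring), lectin receptors (0.04 with median centring) and the respiratory chain (-0.01 with quantile normalization). With normexp and the 75th percentile, the double difference was 2-fold in 155 higher and 95 lower genes and the knockdown difference in 78 and 146; with normexp and quantile normalization these were 158, 91, 82 and 134. The iron step then held 31.7% and 32.7% of genes and the knockdown step 38.2% and 37.1%. With no filter on background the counts were 662, 1508, 924 and 1055, and 32.2% of knockdown differences were back at control, 16.1% part way and 42.8% held; steps were 35.8% iron, 37.0% knockdown and 8.34% opposed. From 1.5-fold the counts were 841, 868, 881 and 1039, with 46.3% back at control, 5.05% part way and 43.3% held, and 6.02% both steps, 58.7% knockdown step and 7.91% opposed. With the control level taken within 0.3, shares were 10.2% back at control, 47.4% part way, 30.5% held and 8.46% added, and 37.5% both steps, 16.7% iron, 30.0% knockdown and 15.8% opposed. Within 0.7, they were 35.6% back at control and 7.35% part way, and 7.89% both steps, 34.7% iron, 49.5% knockdown and 7.89% opposed. Quantile normalization, the series matrix values and the mean over all probes kept these counts within 1.5 times, as did median centring, which gave 345 higher and 158 lower double differences. The cause of the changes with normexp was not tested; the others follow from the genes counted or the width itself. Signal over background limits dim genes, whose spot SD of 0.31 rests on 49 combinations of probe and array, and the 4 arrays limit all precision.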
